A study of Mus musculus with 2 samples.

Results

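The 10 genes used as markers of retinal bipolar cells, *Cabp5*, *Scgn*, *Prkca*, *Grm6*, *Trpm1*, *Vsx1*, *Isl1*, *Gng13*, *Pcp2* and *Nyx*, were followed in Müller glia (MG) that had been purified by fluorescence-activated cell sorting. Members were all probe sets that the array annotation assigns to one of these genes and to no other, which gave 119 of 241576 probe sets, and 10 of 20412 genes with a value. No probe set named a member together with another gene. The light damage array carried pooled RNA of MG from 10 retinas of adult mice that had been exposed to white light of 10000 lux for 8 hours and analysed a week later. The control array carried pooled RNA of MG from 12 undamaged adult retinas. MG were marked by tdTomato, switched on by a tamoxifen-inducible Cre recombinase under the *Rlbp1* promoter (*Rlbp1-creERT2* crossed to *R26-stop-flox-CAG-tdTomato*), and mice for light damage were crossed to the albino Swiss Webster strain, which carries the Leu variant of *Rpe65*. A *Hes5*-GFP line crossed to Swiss Webster was a further MG reporter of the study. Whether the control array came from the same crosses is not given in the sources used here, so genetic background and light damage cannot be told apart. Each sort took the brightest cells of retinas pooled and dissociated with papain. Each condition had 1 array, so no difference could be set against a spread between replicates, no test was made, and the number of arrays limits the precision.

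Bipolar cells are the interneurons that carry signals of rods and cones to amacrine and ganglion cells. ON bipolar cells sense glutamate from photoreceptors through the metabotropic receptor mGluR6, whose G protein closes the cation channel TRPM1 in the dark and lets it open in the light, whereas OFF bipolar cells use ionotropic glutamate receptors. Their somata lie in the inner nuclear layer beside those of MG. Sorted MG should hold few of them, so the question addressed here was what signal such genes gave in the sorted fraction and whether it differed after light damage.

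The homeodomain factors OTX2 and CRX, which act in bipolar cells and photoreceptors, recognise the core TAATCC, and VSX-type homeodomains recognise TAATTA. All 10 genes matched RefSeq promoter sequences of 300 bases (250 before and 50 after a start site, assembly GRCm38.p6), 15 promoters in all because *Trpm1*, *Gng13* and *Pcp2* have several start sites. TAATCC or its reverse complement GGATTA stood in 3 of the 15 promoters, against 7.06% of all 32851 promoters, and TAATTA, which is its own reverse complement, stood in 1 of the 15, against 5.29%. The windows are shown because they lie before genes of both behaviours described below, *Cabp5* and *Isl1* with lower signal after light damage and *Trpm1* and *Pcp2* without. Capitals mark the motif, each window reads 5′ to 3′ on the gene's strand, and a match describes letters only, not binding.
Cabp5, chr7:13397986-13398009, plus strand: gcctcacccTAATCCctctttcaa
Cabp5, chr7:13398105-13398128, plus strand: gaagagctcTAATCCctccactgt
Trpm1, chr7:64153792-64153815, plus strand: ggggagtagGGATTAaggctgatt
Isl1, chr13:116309851-116309874, minus strand: cgggaggctTAATCCtctcctgcg
Pcp2, chr8:3625369-3625392, minus strand: tagggcatcTAATTAgcaagcaag

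The 10 bipolar cell genes did not differ as a block. *Scgn* and *Cabp5*, which encode calcium-binding proteins, stood lower after light damage, at −1.35 ± 0.49 and −1.13 ± 0.46 on the log2 scale (SD over 11 and 8 probe sets), or 2.56-fold and 2.18-fold, with every probe set below its control value. No probe set of *Scgn* on the light damage array and 2 of its 11 on the control array lay above the 95th percentile of probe sets of genes from other organs, so its fold rests on low signal. *Isl1* was lower by less, at −0.64 ± 0.50 over 9 probe sets. *Grm6*, *Trpm1*, *Gng13* and *Pcp2*, which serve the mGluR6 cascade of ON bipolar cells, lay between −0.0006 and 0.24, within the spread of their probe sets. *Nyx*, of the same cascade, stood at −0.49 ± 0.80, *Prkca* at −0.34 ± 0.75 and *Vsx1* at −0.27 ± 0.55. All differences are light damage minus control, the value of a gene is the median over its probe sets, and each SD is technical, since all probe sets of a gene lie on the same 2 arrays.

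On the light damage array the 119 probe sets had a median log2 level of 7.43, against 7.75 on the control array, while the median of all probe sets was 6.99 on the light damage array and 7.02 on the control array. A level of 5 or more was reached by 111 of the 119 on the light damage array and by 113 on the control array, against 80.1% of all probe sets on the light damage array and 80.6% on the control array. For comparison, 94 probe sets of 9 genes of other organs, among them those of albumin and a milk casein, had a median of 5.33 on the light damage array and 5.24 on the control array, and a 95th percentile of 8.53 on the light damage array and 8.16 on the control array. Above these percentiles lay 30 of the 119 probe sets on the light damage array and 45 on the control array. The share of all probe sets above them was not counted, so whether members exceeded it cannot be read from these numbers. Each array was read against its own percentile, which was higher on the light damage array, so a lower count there is not by itself a lower signal. The highest light damage values of *Scgn* (8.41) and *Isl1* (8.47), for example, lay below 8.53 but above 8.16. On the light damage array these were 15 of 33 of *Trpm1*, 9 of 21 of *Prkca*, 2 of 7 of *Pcp2* and 1 each of *Cabp5*, *Grm6*, *Vsx1* and *Gng13*, with 0 of *Scgn*, *Isl1* and *Nyx*. On the control array they were 19 of *Trpm1*, 11 of *Prkca*, 6 of 8 of *Cabp5*, 2 each of *Scgn*, *Isl1* and *Gng13*, 1 each of *Grm6*, *Vsx1* and *Pcp2*, and 0 of *Nyx*. On the light damage array every member had more probe sets at or below the percentile than above it. Probe sets differ in how brightly they report a given amount of RNA, so levels are not ranked between genes.

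A gene was counted where it differed by 1 or more on the log2 scale (2-fold) at a mean level of 5 or more over both arrays, which all 10 members passed. Lower by 1 or more were 2 of 10 members, against 3.47% of 16534 genes counted in the same way, and higher by 1 or more were 0 of 10, against 1.75%. With so few members, 2 genes make the whole of that share. Of all genes that differed by 1 or more, 33.5% were higher, against 45.7% after quantile normalization and 44.7% after removal of a loess trend, and under both the same number of members, 2 lower and 0 higher, was counted. The median over the 10 genes was −0.31 (SD over genes 0.55), beside −0.03 over all genes counted, and 7 of 10 were below 0, beside 52.7%. Among probe sets, 76 of 119 were below 0, against 51.3% of all, 22 (18.5%) were lower by 1 or more, against 12.6%, and 10 (8.40%) were higher by 1 or more, against 10.0%. When *Scgn*, *Cabp5* and *Isl1* were set aside, a choice made after their values were seen, 9 of the remaining 91 probe sets (9.89%) were lower and 10 (10.99%) higher by 1 or more.

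**Figure D1:**
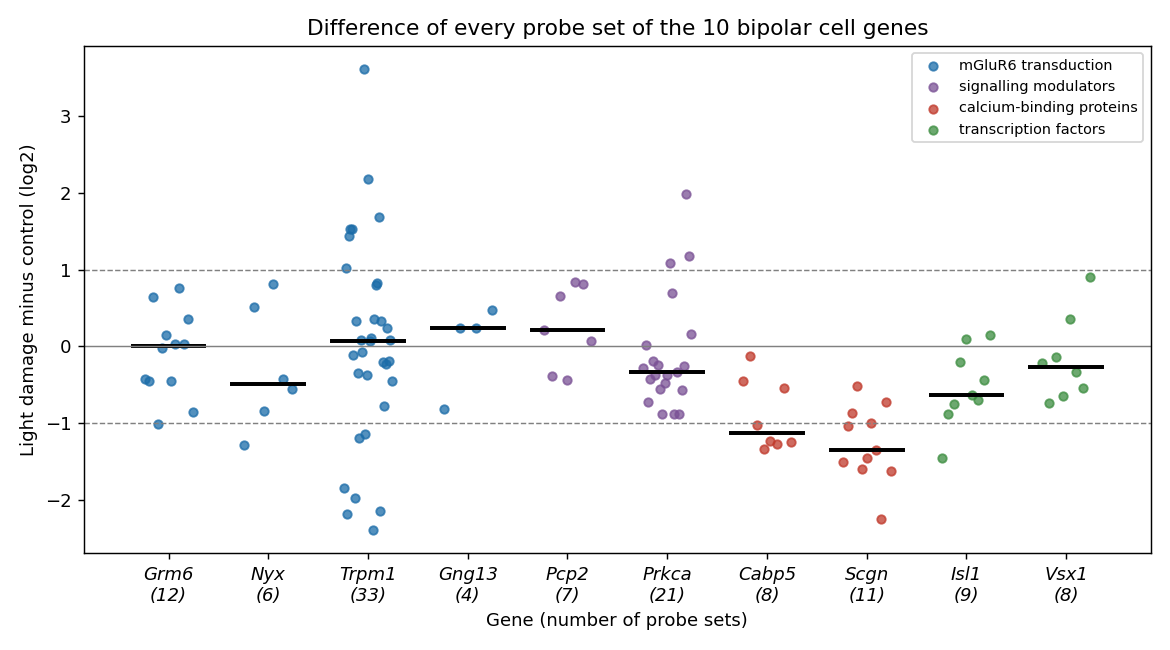
Each point is 1 probe set, with light damage minus control on the log2 scale on the y axis, and genes, with their number of probe sets, on the x axis. Bars are medians, dashed lines mark differences of 1 and −1, and all points of *Cabp5* and *Scgn* lie below 0 whereas those of *Trpm1* spread between −2.39 and 3.61.

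*Grm6* encodes mGluR6, the receptor with which ON bipolar cells sense photoreceptor glutamate. Its 12 probe sets had levels between 4.12 and 8.68 on the light damage array, with a median of 6.65, and between 5.13 and 8.33 on the control array, with a median of 7.02. After light damage 6 were lower and 6 higher, from −1.01 to 0.76, and the gene's difference was −0.0006 ± 0.55. The 4 probe sets at a mean level of 7 or more were all above 0 (median 0.19, up to 0.76), and 6 of the 8 dimmer ones were below 0 (median −0.43). The sign of *Grm6* therefore depended on which probe sets were read.

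*Trpm1* encodes the channel that mGluR6 controls. Its 33 probe sets spanned 2.87 to 11.1 on the light damage array (median 8.31) and 2.76 to 11.02 on the control array (median 8.43), and the difference was 0.07 ± 1.33, with 16 below 0 and 17 above. This spread is wide for one gene. Over the 8398 genes with 10 or more probe sets the SD had a median of 0.74 and a 95th percentile of 1.23. Of the probe sets of *Trpm1*, 7 were lower by 1 or more and 7 higher by 1 or more. The highest value, 3.61, came from a probe set with a level of 6.37 on the light damage array and 2.76 on the control array, and the lowest, −2.39, from one with 2.87 on the light damage array and 5.26 on the control array, both on one side near the low end of the scale. Dim probe sets were not the only ones to scatter, because another had 8.82 on the light damage array and 6.64 on the control array (2.18), and one had 6.02 against 8.20 in the control (−2.18). At a mean level of 9 or more, a limit chosen after seeing the data, the 14 probe sets lay between −1.19 and 0.82, with a median of −0.13 and an SD of 0.55.

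*Nyx* encodes nyctalopin, a leucine-rich repeat protein that places TRPM1 at the dendritic tips of ON bipolar cells. Its probe sets lay near the low end of the scale, with 3 of 6 at 5 or more on the light damage array and 4 of 6 on the control array. The 4 brighter probe sets read 6.72, 5.70, 5.39 and 4.75 on the light damage array, against 7.15, 6.98, 5.95 and 5.59 on the control array, and all 4 were lower. The 2 dimmest read 4.78 and 4.75 on the light damage array, against 4.27 and 3.94 on the control array, and were higher. The gene's difference was −0.49 ± 0.80, smaller than the spread of its probe sets.

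*Gng13* encodes a G protein gamma subunit of ON bipolar cells. Its 4 probe sets read 12.8, 7.40, 6.71 and 6.27 on the light damage array, against 12.6, 8.22, 6.47 and 5.80 on the control array. Of these, 3 were higher, by 0.24, 0.24 and 0.47, and 1 was lower, at −0.82, which gave 0.24 ± 0.58. One probe set thus stood far above the other 3 of the gene on both arrays, and it differed by 0.24.

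*Pcp2* encodes a GoLoco protein that binds inhibitory G protein alpha subunits and is found in rod bipolar and other ON bipolar cells. Its 7 probe sets had levels between 5.83 and 9.01 on the light damage array, against 5.81 to 8.79 on the control array. Of these, 5 were higher and 2 lower, from −0.43 to 0.84, and the difference was 0.22 ± 0.54. *Prkca* encodes protein kinase C alpha, the classic marker of rod bipolar cells, which other cells make as well. Its 21 probe sets had a median level of 8.49 on the light damage array and 8.41 on the control array, and the median of the differences was −0.34 ± 0.75, of the other sign than the difference of both medians.

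*Prkca* fell into unequal groups of probe sets. Below 0 were 15 of 21, none by 1 or more, the lowest being −0.88. Of the 6 above 0, 4 had larger differences, with levels of 8.63, 8.09, 7.66 and 8.49 on the light damage array, against 6.64, 6.92, 6.56 and 7.79 on the control array, or 1.99, 1.17, 1.09 and 0.70. The 5 probe sets at a mean level of 9 or more lay between −0.56 and 0.02. Which exons these probe sets read was not used here.

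**Figure D2:**
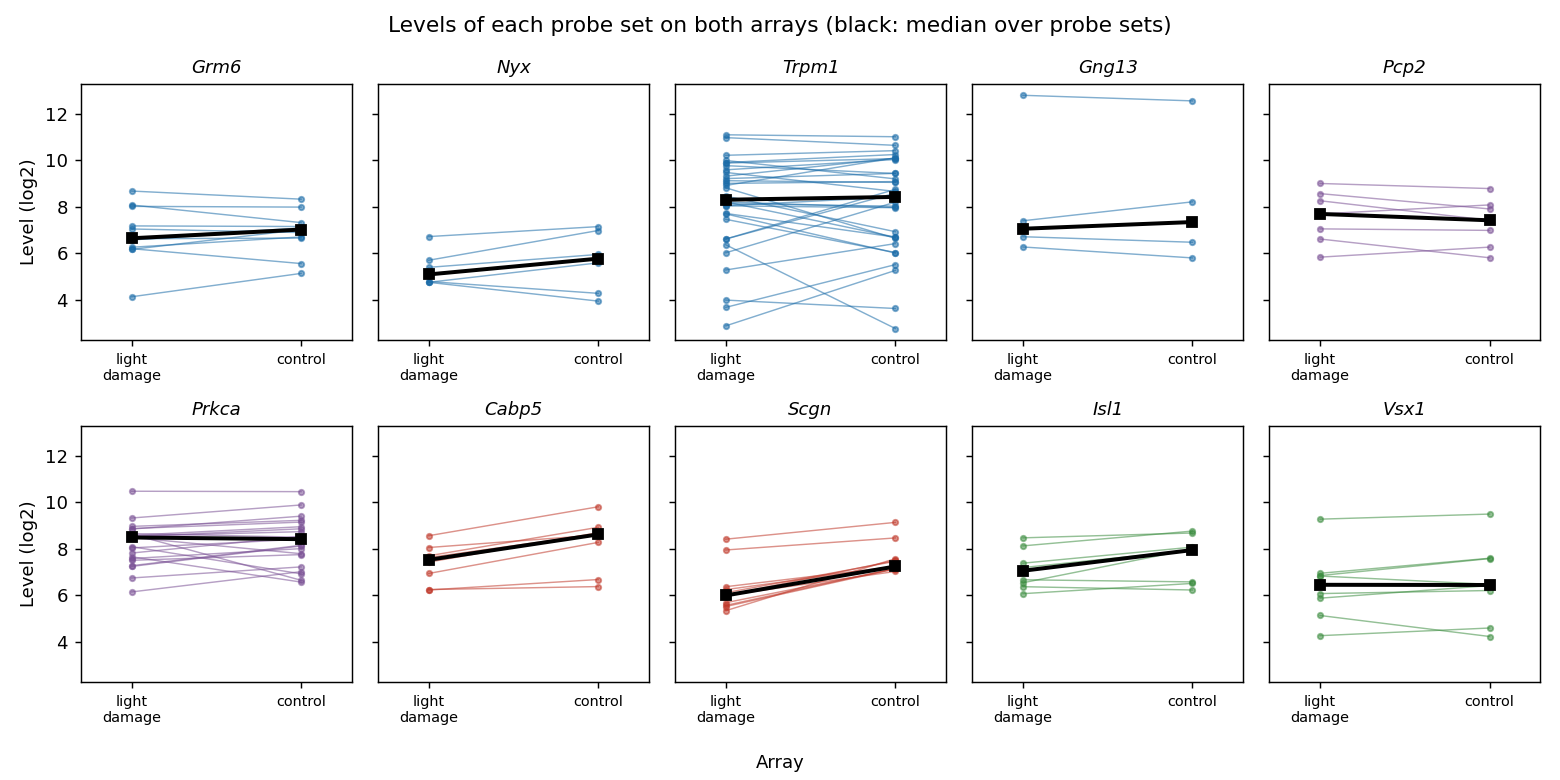
Each line joins the log2 level (y axis) of 1 probe set on the light damage array (left) and the control array (right), and black squares join the medians over a gene's probe sets. Lines of *Scgn* and *Cabp5* stand lower on the light damage side throughout, and those of *Trpm1* cross.

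*Scgn* encodes secretagogin, an EF-hand calcium-binding protein of several cone bipolar cell types. It had the lowest difference of the 10 genes, −1.35 ± 0.49, at percentile 0.617 of the differences of all genes. Levels of its 11 probe sets lay between 5.33 and 8.41 on the light damage array (median 5.99), against 7.02 to 9.14 on the control array (median 7.24). All 11 were lower, between −2.24 and −0.52, and 7 of them by 1 or more. The 2 brightest probe sets differed least, with 8.41 and 7.95 on the light damage array, against 9.14 and 8.47 on the control array. The other 9 had mean levels between 5 and 7 and a median of −1.46. Read from probe sets at a mean level of 7 or more alone, *Scgn* stood at −0.62, and from its brightest alone at −0.72, so its place past 1 rested on its dimmer probe sets.

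*Cabp5* encodes a calmodulin-like protein of rod bipolar and some cone bipolar cells. Its 8 probe sets lay between 6.22 and 8.56 on the light damage array (median 7.52), against 6.37 to 9.81 on the control array (median 8.62). All 8 were lower, from −0.13 to −1.34, and 5 of them by 1 or more. In contrast to *Scgn*, the dimmest 2 differed least, at −0.13 and −0.45, and the 6 at a mean level of 7 or more had a median of −1.24. The brightest read 8.56 on the light damage array and 9.81 on the control array. The mean over all 8 was −0.90, on the other side of 1 from the median of −1.13. Of the 7 members with 8 or more probe sets, these 2 had all of them below 0, as had 3.33% of 9413 such genes.

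*Isl1* encodes a LIM homeodomain factor of ON bipolar cells that ganglion cells and cholinergic amacrine cells also express. Levels of its 9 probe sets lay between 6.06 and 8.47 on the light damage array (median 7.05), against 6.22 to 8.76 on the control array (median 7.95). Of these, 7 were lower and 2 higher, and 1 was lower by more than 1 (−1.46). The 6 at a mean level of 7 or more were all below 0, with a median of −0.72, and the 3 dimmer ones lay between −0.44 and 0.14. *Vsx1* encodes a paired-like homeodomain factor of cone bipolar cells. It had levels between 4.25 and 9.28 on the light damage array, against 4.22 to 9.50 on the control array, and differed by −0.27 ± 0.55 with 6 of 8 probe sets below 0. Its 3 probe sets at a mean level of 7 or more read −0.22, −0.65 and −0.73, and the value furthest above 0, 0.91, belonged to a probe set at 5.12 on the light damage array and 4.22 on the control array.

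Grouped by role, the 19 probe sets of both calcium-binding genes had a median of −1.23 and none above 0, and the 17 of both transcription factors a median of −0.44 with 13 below 0. The 55 of *Grm6*, *Trpm1*, *Nyx* and *Gng13* had a median of 0.03 with 27 below 0, and the 28 of *Prkca* and *Pcp2* a median of −0.27 with 17 below 0. Probe sets of a gene are no replicates, and no test of these role groups against each other was made.

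Partners of the mGluR6 cascade outside the member list also went both ways. Their 8 genes had a median of 0.20, with 3 below 0 and 5 above. A single one passed the threshold, on the lower side, against 3.47% of all genes counted. It was *Gnb5*, the G protein beta subunit that works with RGS proteins in bipolar cells and photoreceptors, at −1.11 ± 0.52 with 13 of 13 probe sets below 0, and with a median level of 9.98 after light damage, against 11.7 in the control. The 22 further bipolar genes that reached a mean level of 5 had a median of 0.07, with 10 below 0 and 12 above. Again a single one (4.55%) passed, lower after light damage, which is near the share of 3.47% over all genes. It was *Gabrr3*, a GABA receptor rho subunit, at −1.11 ± 0.83 with 7 of 9 probe sets below 0, which read 5.28 after light damage, against 6.89 in the control. Its light damage level lay below the median of other-organ probe sets on that array (5.33), so its fold rests on low signal. Under quantile normalization or without the loess trend 0 of the 8 partners passed the threshold, and with an offset of 32 before the log2 or the mean of probe sets 0 of the further bipolar genes did.

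Markers of photoreceptors moved on the same arrays. The 19 rod genes with a value had a median of −0.93, with 19 below 0 and 8 at −1 or less, and the 12 cone genes a median of −0.73, with 11 below 0 and 4 at −1 or less. Of all genes counted, 52.7% were below 0 and 3.47% were at −1 or less. *Arr3*, the cone arrestin gene, stood at 9.39 after light damage and 10.2 in the control. When the median levels of the genes were turned to a linear scale and summed, the sum on the light damage array was 0.573 of that on the control array for the rod genes, 0.468 for the cone genes and 0.777 for the 10 bipolar genes. For the mGluR6 partners it was 0.718, but 1.10 without *Gnb5*, and for the 22 further bipolar genes 0.878. These sums rest on the median level on each array, which can differ in sign from a gene's difference. By level *Gng13* (7.06 against 7.35 in the control) and *Trpm1* (8.31 against 8.43) were lower, though their differences were above 0. For *Prkca* and *Vsx1* it was the reverse. Leaving out the gene with the largest part of the change, a step chosen after seeing the data, gave 0.849 for the 10 bipolar genes (without *Cabp5*), 0.588 for the rod genes and 0.556 for the cone genes. For the 22 further bipolar genes it gave 0.931. The part of photoreceptor genes in the bipolar values was not tested. In such pooled samples, fewer cells of a type and less RNA per cell cannot be told apart.

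Horizontal, amacrine and ganglion cell lists, whose cells share the inner retina with bipolar cells or, as for *Isl1*, a marker, had medians of 0.18 (5 genes), −0.11 (11) and −0.05 (8). Their summed linear levels on the light damage array were 1.24 (horizontal), 0.755 (amacrine) and 1.46 (ganglion) of those on the control array. None of their genes was lower by 1 or more, against 3.47% of all genes counted. Higher by 1 or more was 1, against 1.75%. It was the ganglion cell gene *Thy1*, a surface glycoprotein, at 1.32 ± 0.60 with 5 of 5 probe sets above 0. Over genes with a value, median levels on the light damage array were 5.82 (horizontal), 5.61 (amacrine) and 5.84 (ganglion), beside 5.38 for genes of other organs. At levels this near background, a lack of change in these cells cannot be read from the counts. Without *Thy1*, named after its values were seen, the ganglion ratio was 1.03. Without the gene with the largest part of the change, the horizontal ratio was 1.07 and the amacrine ratio 0.876. The defining horizontal gene *Lhx1*, a LIM homeodomain factor, stood at 5.82 after light damage and 5.33 in the control, the GABA-synthesising enzyme gene *Gad1* of amacrine cells at 6.78 after light damage and 7.23 in the control, and *Rbpms*, an RNA-binding protein gene of ganglion cells, at 6.99 after light damage and 6.36 in the control. The 15 Müller glia genes had levels between 9.01 and 13.1 on the light damage array (median 11.2) and between 9.16 and 13.4 on the control array (median 11.4). Rod genes gave signal on both arrays as well, with levels between 7.84 and 13.5 on the light damage array (median 10.5) and between 8.63 and 13.9 on the control array (median 11.6). The Müller glia genes had a median difference of −0.06 and a summed linear level of 1.04 of the control, and *Rlbp1*, the retinaldehyde-binding protein gene that drives the reporter, stood at 11.3 after light damage and 12.0 in the control. The 7 microglial genes had a median of −0.06 and a summed linear level of 0.945 of the control, and the microglial receptor gene *Cx3cr1* stood at 6.68 after light damage and 6.997 in the control. Microglial levels were also near background, with a median of 5.96 on the light damage array over genes with a value. All 10 endothelial and pericyte genes were above 0, against 7771 of 16534 genes counted, with a median of 0.47. Higher by 1 or more was 1 of them (*Rgs5*, 1.13), against 1.75%. Their summed linear level was 1.34 of the control, and 1.49 without *Kdr*, the gene with the largest part of the change. On the light damage array this sum rested mainly on *Kdr* (12.2) and *Flt1* (11.0), while the median level was 6.51. The endothelial adhesion gene *Pecam1* stood near background, at 5.92 after light damage and 5.61 in the control.

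**Figure D3:**
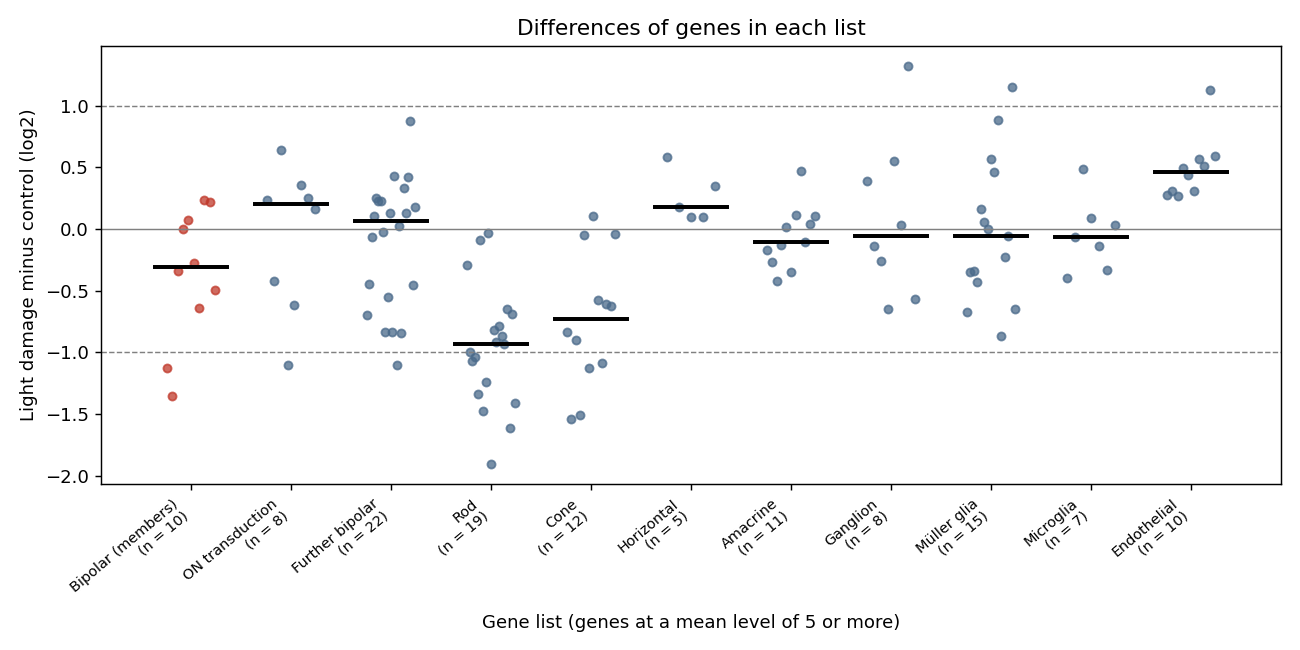
Points are genes whose mean level reached 5, with light damage minus control on the log2 scale on the y axis and gene lists on the x axis, and bars are medians. The bipolar median of −0.31 lies above those of rods (−0.93) and cones (−0.73) and below that of the further bipolar genes (0.07).

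**Figure D4:**
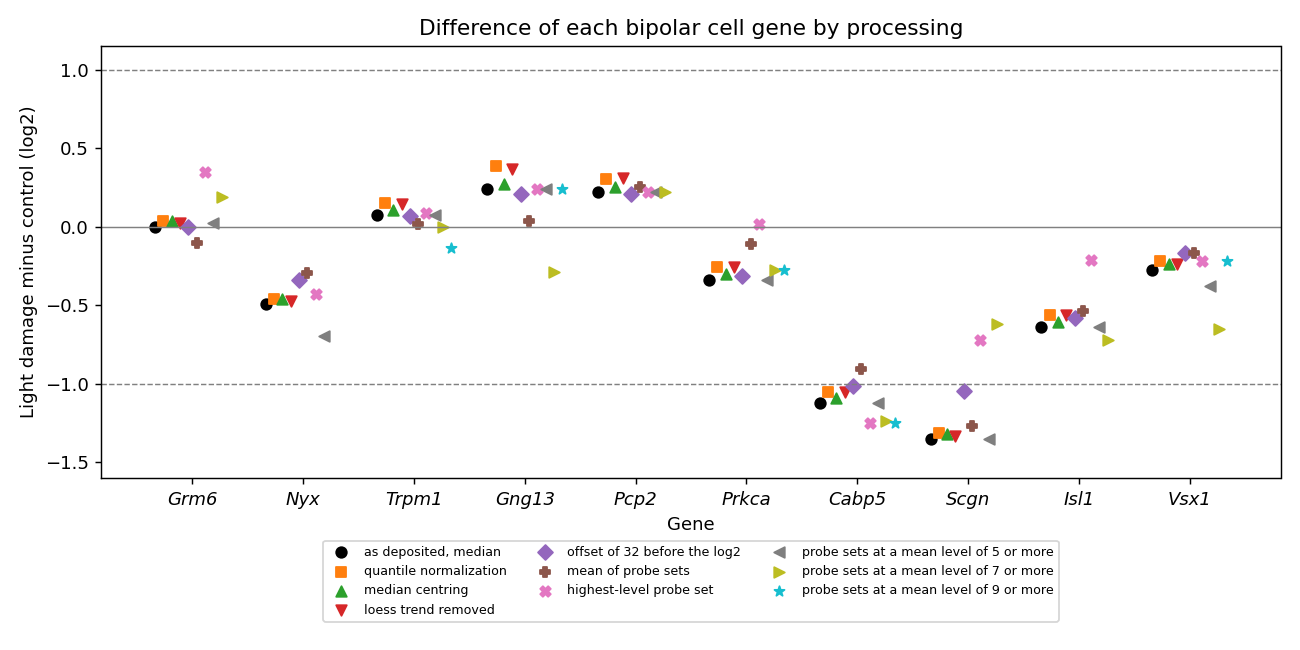
Light damage minus control on the log2 scale (y axis) of each of the 10 genes (x axis) under the values as deposited (black) and 9 other treatments of the data. *Cabp5* and *Scgn* stay below 0 throughout, *Scgn* between −1.35 and −0.62, whereas points of *Grm6*, *Trpm1*, *Gng13* and *Prkca* lie on both sides of 0.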

How the data were processed

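RNA of sorted MG, pooled per condition, was amplified, labelled and hybridised to the Affymetrix Mouse Gene 1.0 ST array. The authors normalized the deposited log2 values with Affymetrix Power Tools and viewed them in TM4 Multi-Experiment Viewer. For versions, background correction and summarisation, nothing is given in the sources used here. Values are log2 levels of probe sets at the level of exons, and both columns were used as deposited, on scales with medians of 6.99 (light damage) and 7.02 (control).

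Of 241576 probe sets, 212138 had 1 gene in the platform annotation, 4672 several and 24766 none, and those with 1 gene entered gene values. Old symbols (2689) were updated through RefSeq synonyms of GRCm38.p6 where the match was unique. Genome positions of probe sets were not used. For each gene, light damage minus control was taken per probe set and its median reported, its level the median on each array, and its mean level the average of both.

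The methods plot log2 light damage minus log2 control with no test. With 1 array per condition none was made. Members and the 12 gene lists, 140 of whose 145 genes had a value, were chosen with earlier results of these data known. Named were all members, genes of both further bipolar lists that differed by 1 or more, and 1 defining gene of each other cell type. Outside this rule, *Thy1*, *Crym* and *Rgs5* were named because they were higher by 1 or more. *Kdr* and *Flt1* were named for their part in the endothelial sum. Rod and cone genes past the threshold were only counted. Listed genes without a value, the defining rod gene among them, were not analysed here.

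Alternatives were quantile normalization, median centring, removal of a loess trend (span 0.3), an offset of 32 before the log2, the mean or the brightest probe set of a gene, probe sets at a mean level of 5, 7 or, chosen after seeing the data, 9 or more, no minimum level, and a threshold of 1.5-fold. Steps were run on simulated data, with shuffled differences and the same shift added to every probe set of a chosen gene. That setting does not test genes whose probe sets differ with brightness. Python 3.11.15 was used with numpy 2.4.6, pandas 2.3.3, statsmodels 0.14.6 and matplotlib 3.10.9.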

Additional observations from a re-analysis of the deposited data

How the results depend on the processing

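No paired analysis was possible because each condition had 1 array. *Cabp5*, *Scgn*, *Isl1*, *Vsx1* and *Nyx* were below 0 and *Pcp2* above 0 in all settings that gave them a value. *Cabp5* ranged from −1.25 to −0.90 and *Scgn* from −1.35 to −0.62, and *Grm6* (7 of 8 settings), *Trpm1* (2 of 9), *Gng13* (1 of 9) and *Prkca* (1 of 9) changed sign. *Nyx* had no probe set whose mean level reached 7. The number of members lower by 1 or more, 2, became 1 with the mean of probe sets (*Scgn*), with the brightest probe set (*Cabp5*), and with probe sets at 7 or more or at 9 or more (*Cabp5*). The share of all genes counted was 3.07% with the mean, 7.16% with the brightest probe set, 4.75% at 7 or more and 6.90% at 9 or more. Only 9 members had a value at 7 or more, and 5 at 9 or more. At a threshold of 1.5-fold the number of members lower was 3, against 13.7% of all genes, and none was higher, against 7.95%.

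For the mGluR6 partners, 0 genes in place of 1 were lower by 1 or more after quantile normalization and after removal of the loess trend, and 2 were lower and 1 higher at the threshold of 1.5-fold. For the further bipolar list, 0 in place of 1 were lower with the offset of 32, the mean of probe sets, or probe sets at 7 or more or at 9 or more, 2 lower and 1 higher with the brightest probe set, 5 lower and 1 higher at 1.5-fold, and 1 higher at 9 or more. Over all genes, 33.5% of those that differed by 1 or more were higher, against 45.7% after quantile normalization, 44.7% without the loess trend and 45.2% with the brightest probe set. The brightest probe set alone gave 1342 lower and 1107 higher genes, against 574 and 289, the offset gave 311 and 157, and the threshold of 1.5-fold gave 2258 and 1314. The causes of these changes were not tested. Signal over background limits what *Nyx*, *Scgn*, *Isl1* and the dim probe sets of *Trpm1*, *Grm6* and *Vsx1* can show.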
